A study of Mus musculus with 16 samples.

Results

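In livers of mice given a high-fat diet with betaine, 3285 protein-coding genes carried an N6-methyladenosine (m6A) peak in both pulldown libraries and 2031 genes carried none in either. These are called methylated and unmethylated genes below, and the names stand for the presence of a peak only. The sets were chosen by measured values, the mRNA level and the presence of m6A peaks in HB (below). They were taken from 6812 protein-coding genes (of 20715 such genes, and of 24539 genes in the tables) with a level of at least 10 CPM (reads scaled to the library's total) in both mRNA libraries of this diet. Of these, 6808 had an annotated gene span, and a gene counted as methylated where a peak summit fell within its span. Methylated genes made up 48.3% of the 6808 genes and unmethylated genes 29.8%. The remaining 1492 genes (21.9%) had a summit in 1 library only and belong to neither set. Near the threshold, the methylated gene Abi3 was just inside, at the threshold in the first library, and the peak-bearing gene Mettl16 was just outside with 9.993 CPM in the second. Of the genes without a peak, Dennd4b was just inside, at the threshold in the first library, and R3hcc1 was just outside with 9.959 CPM there.

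The study fed male C57BL/6 mice a high-fat diet with betaine (HB) or a high-fat diet alone (HF) for 8 weeks, and took the livers at an age of 16 weeks. Total mRNA, mRNA pelleted with ribosome-nascent chain complexes (ribosome-bound mRNA), m6A pulldowns and their inputs were sequenced in 2 libraries per diet. The inputs were not analysed here. Per the labels, RNA was pooled over independent experiments for the mRNA and ribosome-bound libraries, so every p-value measures only the spread between pools and not between single mice. The labels name no transgene or deletion, and the high-fat diet is common to both groups.

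m6A is written on nascent mRNA by the METTL3 and METTL14 complex, removed by FTO and ALKBH5, and read by YTH-domain proteins. In mammalian mRNA it gathers around the stop codon and in the 3′ untranslated region, and readers have been linked to mRNA decay and to translation. Betaine is a methyl donor that the liver uses through the enzyme BHMT to make methionine, the precursor of S-adenosylmethionine, the methyl source for m6A.

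To show what sequence lay under such summits, the 30 bases around the summit were read wherever they fell inside the window around an annotated gene start, since sequence was at hand only for those windows (RefSeq, GRCm38.p6). This gave 31 summits of methylated genes. GGAC, the usual core of the m6A consensus, was searched on both strands. It was present on the transcript strand in 4 of the 31 windows (12.9%), and on the other strand in 4 (12.9%). Among the last 30 bases of all 32851 start-site windows, 11.7% held it on the transcript strand and 10.5% on the other. The shares under these summits were therefore near those of start-site windows in general. Several of the windows lie at starts far inside the gene span, up to 52691 bases from its beginning in Cobl. The 4 windows with the motif on the transcript strand are shown, with GGAC in capitals, followed by the window of the most enriched summit and by that of Dhcr7, a late enzyme of cholesterol synthesis, which lack it. The Dhcr7 transcript is described further on.
Stat5a (chr11:100859610-100859639, + strand): aggtcactggatGGACtcccgagtggtttg
Pnpla6 (chr8:3515500-3515529, + strand): ttcgaGGACtgttagagagcttcagctttg
Usf1 (chr1:171411454-171411483, + strand): agccggccggagtccGGACgccggtggatc
Dis3l (chr9:64340956-64340985, - strand): ccggggtGGACcgggaaggcccgggcggga
Zfp637 (chr6:117841272-117841301, + strand): agtgttgctgaggccggggctgtgcgcccg
Dhcr7 (chr7:143823213-143823242, + strand): tgctttctgtcgctgtgatgaacacgtggc
The peaks over these windows had a fold enrichment over local background, as the authors' peak lists give it, of 21.4 in Stat5a, 9.67 in Pnpla6, 8.49 in Usf1, 6.78 in Dis3l, 29.0 in Zfp637 and 7.56 in Dhcr7.

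Methylated genes had longer transcripts and lower mRNA levels than unmethylated genes. The longest annotated transcript had a median of 3616 bases in methylated genes (interquartile range 2398 to 5318), against 1787 bases in unmethylated genes (1166 to 2613.5). Gene spans, introns included, had medians of 43138 bases in methylated genes and 8609 bases in unmethylated genes. Levels are compared per length, as RPKM, reads per kilobase scaled to the library. The median level in the 2 HB mRNA libraries was 8.55 and 7.54 RPKM for methylated genes, against 36.3 and 38.0 RPKM for unmethylated genes. In the 2 HB ribosome-bound libraries it was 8.19 and 8.17 RPKM for methylated genes, against 30.4 and 30.4 RPKM for unmethylated genes. The interquartile ranges met in every library, as the plot of RPKM by library shows. Level entered the choice of the genes, and a longer span has more room for a summit, so these differences are given as a description with no test. Within strata of length and span the difference in median log2 RPKM was smaller, at -1.24 and -1.22 in the 2 libraries, against -2.09 and -2.33 without strata.

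**Figure D1:**
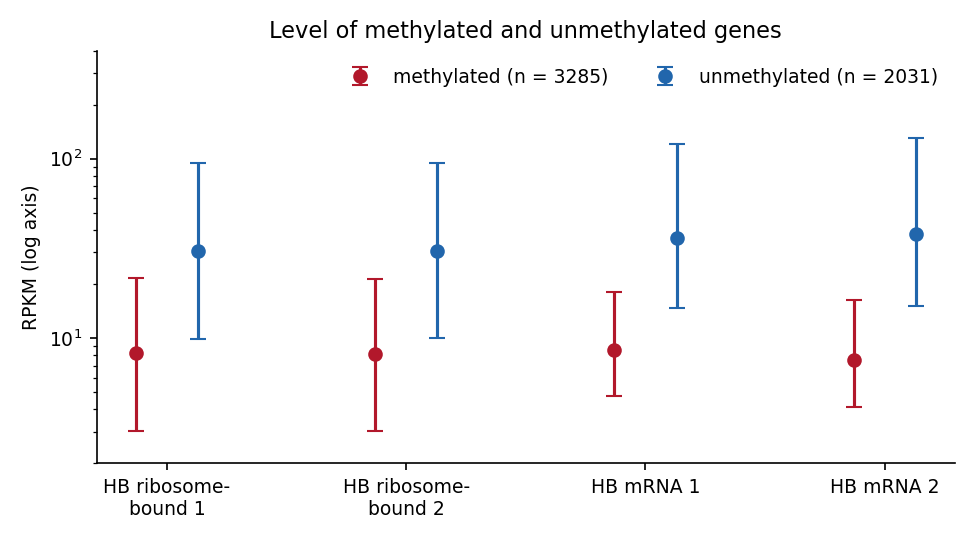
Median RPKM (points, log axis) with the interquartile range over genes (bars) of methylated and unmethylated genes in each HB library. Methylated genes have medians of 7.54 to 8.55 RPKM in the 4 libraries and unmethylated genes 30.4 to 38.0 RPKM.

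The share of methylated genes among both sets was greater in each longer quintile of transcript length. It was 27.1% in the shortest quintile (292 to 1492 bases), 44.1%, 64.0% and 79.6% in the next quintiles, and 94.3% in the longest (4867 to 23495 bases). By gene span the share was 20.2% in the shortest quintile and 99.5% in the longest, where 1058 genes were methylated and 5 were not. By mRNA level the share ran the other way, from 79.3% in the lowest quintile of CPM through 77.0%, 65.8% and 57.2% to 29.6% in the highest.

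Some of the genes with the most abundant liver mRNAs carried a peak in their span. Fabp1, the liver fatty acid binding protein, was the methylated gene with the highest level, at 12939 and 12976 RPKM in HB ribosome-bound libraries and 14515 and 18363 RPKM in HB mRNA libraries. Its gene span of 5156 bases, which holds a 492-base transcript, had 1 summit in each HB library, with fold enrichments of 7.98 and 7.62. Whether these summits lie in the transcript or in an intron was not tested. Apoa1, the main protein of high-density lipoprotein, had 15513 and 15742 RPKM in ribosome-bound libraries and 8069 and 12679 RPKM in mRNA libraries, with 1 summit in each at 7.97 and 6.86. Both genes thus passed with peaks near the lowest fold enrichment in the lists, which was 6.00. Serpina3k, a plasma serine protease inhibitor, Adh1, the alcohol dehydrogenase, Kng1, the kininogen precursor, and Arg1, the urea cycle arginase, were also among the most abundant methylated genes. Mup2 was in that group too, but major urinary protein genes are near-identical copies and their reads and peaks cannot be assigned with certainty.

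The 10 most abundant unmethylated genes were Apoa2, Apoe, Alb, Mup10, Apoc1, Apoc3, Mup3, Ttr, Mup20 and Ftl1, a ferritin chain, and the 3 Mup genes are as uncertain as Mup2. Apoa2, of high-density lipoprotein, had 45307 and 45381 RPKM in HB ribosome-bound libraries and 28748 and 50267 RPKM in HB mRNA libraries. Alb, encoding albumin, had 13163 and 13000 RPKM in ribosome-bound libraries, against 31910 and 24178 RPKM in mRNA libraries. Apoe, the remnant lipoprotein ligand, had 12410 and 12514 RPKM in ribosome-bound libraries, against 24023 and 34352 RPKM in mRNA libraries. None of these 3 genes had a summit in any of the 4 m6A libraries, HF ones included. Apoc1 had none in HB and 1 in the first HF library, with a fold enrichment of 7.07.

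Length did not separate the sets fully. Lrp1, an endocytic lipoprotein receptor, had the longest transcript among unmethylated genes, with 14891 bases and a span of 82992 bases, and no summit in any of the 4 m6A libraries. Its level was 43.0 and 54.9 RPKM in the HB mRNA libraries. Fasn, the fatty acid synthase, with 9938 bases, also had no summit in the 4 libraries. Its level was 212 RPKM in the first HB mRNA library and 32.4 RPKM in the second, a spread of the HB pair that bears on every Fasn value below. Fn1, encoding fibronectin, had no HB summit and 1 in the second HF library, with a fold enrichment of 15.6. Marf1, a regulator of RNA in oocytes, had no HB summit but 2 and 3 summits in the HF libraries.

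Groups of genes differed widely in how many members carried a peak, as the plot of gene lists shows, and each count is to be read against the 48.3% methylated and 29.8% unmethylated among all 6808 genes. Of 29 chromatin and epigenetic regulators at 10 CPM or more, 24 (82.8%) were methylated and 2 unmethylated. Of 35 liver transcription factors and nuclear receptors, 28 (80.0%) were methylated and 3 unmethylated, with Hnf4a, Ppara and Cebpa among the methylated. Of 25 insulin and growth factor signalling genes, 17 were methylated and 5 unmethylated. Of 17 circadian clock genes, 10 (58.8%) were methylated and 5 (29.4%) unmethylated, nearer to those shares. The m6A pathway's own genes were mostly methylated, with 10 of 14 in that set and 2 unmethylated. They included the writer subunit Wtap, the eraser Fto and the readers Ythdf1, Ythdf2, Ythdf3 and Ythdc1, while Mettl3 and Mettl14 lay below 10 CPM and so belong to neither set.

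Other lists had more unmethylated than methylated members. Of 79 ribosomal protein genes 7 (8.86%) were methylated and 66 (83.5%) unmethylated, and of 76 respiratory chain genes 6 (7.89%) and 62 (81.6%). Of 39 plasma protein genes 8 were methylated and 27 unmethylated, and of 35 urea cycle and amino acid genes 5 and 25. Cytochrome P450 enzymes had 7 methylated and 21 unmethylated genes of 34. Cholesterol synthesis had 3 and 15 of 26, and fatty acid and triglyceride synthesis 5 and 10 of 22. Among 29 betaine and one-carbon enzymes 5 were methylated and 13 unmethylated, and the unmethylated ones included Bhmt, Gnmt and Mat1a. Of the remaining lists, endoplasmic reticulum stress genes had 12 methylated and 9 unmethylated of 24, and immediate-early genes 8 and 5 of 18, both near the share of all genes. Proteasome subunits had 10 methylated and 16 unmethylated of 31, translation factors 8 and 17 of 36, fatty acid oxidation genes 9 and 16 of 33, and splicing factors 10 and 10 of 33. Among cell type markers, hepatocyte genes had 3 methylated and 7 unmethylated of 12, macrophage genes 2 and 6 of 8, endothelial genes 5 and 0 of 9, stellate genes 2 and 1 of 4 and cholangiocyte genes 0 and 1 of 1, while no neutrophil marker reached 10 CPM. The lists also differed in length. Ribosomal protein genes had a median of 725 bases and respiratory chain genes 726.5 bases, chromatin regulators 8350 bases and insulin signalling genes 6652 bases. The part of length in these counts was not tested beyond the quintiles above.

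**Figure D2:**
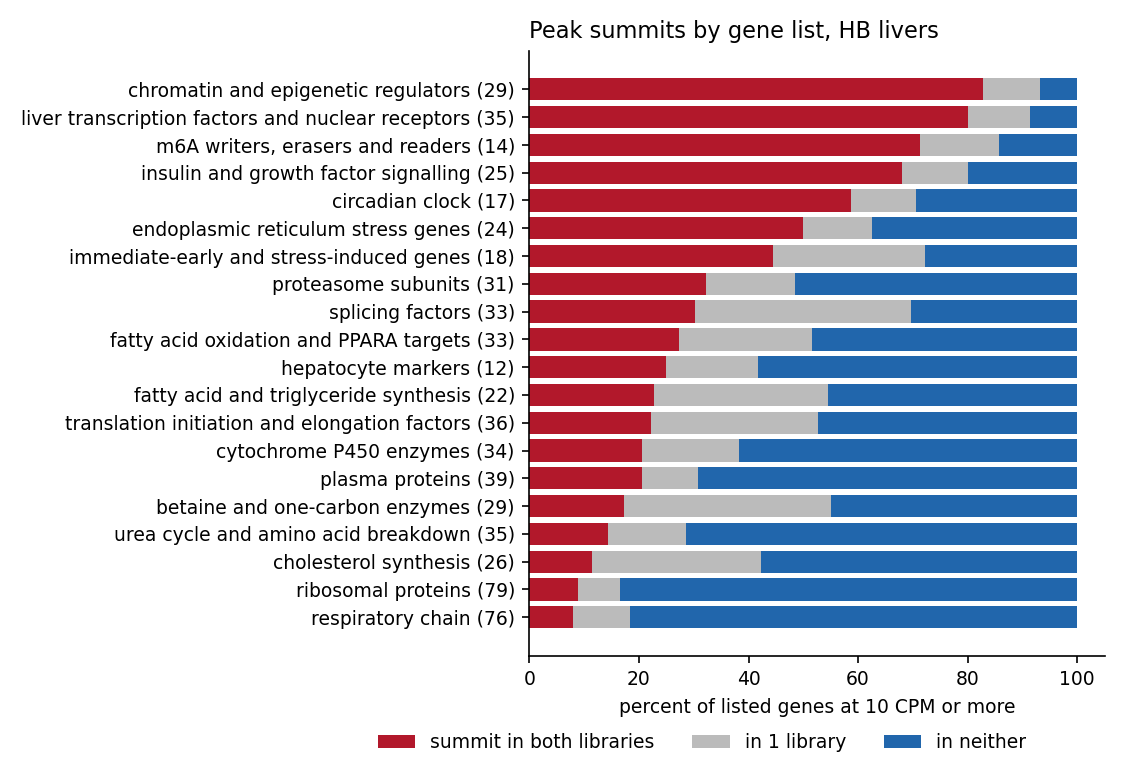
Percent of the genes at 10 CPM or more in each list (number in brackets) with a summit in both HB m6A libraries, in 1, or in neither, for the lists with at least 10 such genes. Chromatin regulators (82.8% methylated) are at the top and respiratory chain genes (7.89%) at the bottom.

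Within methylated genes the peaks themselves seldom matched between the HB libraries. The first HB library had 22086 peaks, 10641 of them (48.2%) with a summit in a methylated gene, and the second had 25718, of which 11600 (45.1%). Only 23.6% of those in the first library overlapped a peak of the second by at least 1 base, and 21.3% of those in the second overlapped a peak of the first. Overlaps with the HF libraries were of like size, 20.2% to 22.8%. At the gene level 1773 methylated genes (54.0%) had at least 1 overlapping peak and 1512 (46.0%) had summits in both libraries at different places. Dpyd, which encodes the enzyme that breaks down pyrimidines and spans 870816 bases, had the most summits, 73 and 85. Across the 3285 genes, span and number of summits were correlated with Pearson's r of 0.74 (Spearman's rho 0.74). The best fold enrichment of a gene in 1 HB library and in the other were correlated with r of 0.38 (rho 0.37). Genes are not independent replicates, and both libraries share the same genes and spans.

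Peaks found in both libraries had their summit near the 3′ end of the gene in a larger share of cases than the other peaks. Of the overlapping peaks in genes with an annotated strand, 32.7% in the first HB library and 32.5% in the second had their summit in the last 10% of the gene span. Of the peaks without an overlap, 14.3% and 9.91% did. In the first 10% lay 6.43% and 6.53% of overlapping peaks, against 9.30% and 10.7% of the others. Overlapping peaks had a median fold enrichment of 11.6 and 9.77 in the 2 libraries, and the others 10.2 and 8.37.

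**Figure D3:**
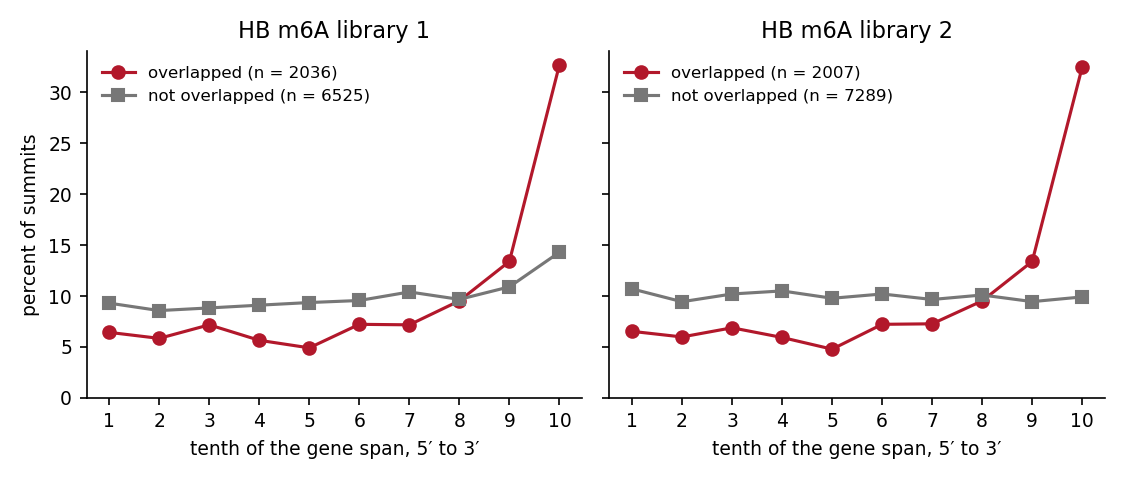
Percent of summits in methylated genes by position along the gene span, in 10 equal parts from the 5′ to the 3′ end, in each HB m6A library, for peaks that overlap a peak of the other HB library and for peaks that do not. Overlapping peaks reach 32.7% and 32.5% in the last part, and the others stay between 8.57% and 14.3% throughout.

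Genes with few or short introns made up a small group in which a summit lies in or next to the mature transcript. Taking genes whose span was at most 1.1 times the transcript, 48 were methylated and 30 unmethylated. Of the 48 methylated genes 46 had an overlapping peak in both HB libraries, compared with 54.0% of all methylated genes. Their short spans leave little room for summits to lie apart, so no conclusion is drawn from this contrast. The methylated genes of this group had a median transcript of 2794.5 bases, against 1895 bases in unmethylated genes. Their median level was 10.2 and 8.13 RPKM in the HB mRNA libraries, against 15.3 and 14.3 RPKM in unmethylated genes. Their median log2 ratio of ribosome-bound over mRNA (defined below) was -1.57, against -1.0 in the unmethylated genes, the opposite order to that of the full sets. Jund, an intronless AP-1 transcription factor gene of 2878 bases, had 1 summit in each of the 4 m6A libraries, with fold enrichments of 47.1 and 37.7 in HB and 37.5 and 43.1 in HF. Cebpb, an intronless transcription factor gene of 1518 bases, had 1 summit in each library at 27.9 and 26.2 in HB and 32.0 and 37.9 in HF. Cebpa, its relative in liver differentiation, had 1 in each at 7.79 and 6.97 in HB and 10.5 and 11.4 in HF. For these 3 genes both diets gave a single peak in every library.

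Ranked by the lower of the best peaks of the 2 HB libraries, the first gene was Syne1, which encodes a giant protein of the nuclear envelope. Its best peaks reached 86.2 and 74.0 in the HB libraries, against 36.9 and 14.1 in the HF libraries, from 17 to 19 summits per library. Ccnt2, a cyclin of the transcription elongation factor P-TEFb, had best peaks of 48.7 and 38.1 in HB and 21.4 and 29.9 in HF. Urgcp had 51.8 and 47.1 in HB and 28.8 and 46.8 in HF, and Rreb1, a zinc finger transcription factor, 42.0 and 37.1 in HB and 24.2 and 36.4 in HF. These genes were picked for high HB values, so their HB and HF enrichments are given side by side with no comparison. Rabgap1 and Strbp, also near the top, share their summit because the genes overlap. In all, 1738 methylated and 741 unmethylated genes overlapped another annotated gene.

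The HF m6A libraries had no part in the choice of genes. Of the 3285 methylated genes, 2656 (80.9%) had a summit in both HF libraries and 132 (4.02%) in neither. Of the 2031 unmethylated genes, 228 (11.2%) had a summit in both HF libraries and 1325 (65.2%) in neither. Methylated genes with an overlapping HB peak had a summit in both HF libraries in 88.0% of cases, and those without in 72.5%. The same spans and lengths apply in both diets.

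The ribosome-bound over mRNA ratio was computed per gene as the log2 of ribosome-bound over mean mRNA CPM after TMM scaling, with 0.5 CPM added to both. Its median was -0.44 for methylated and -0.77 for unmethylated genes, a difference of 0.33. HB mRNA level entered the choice of genes and is part of the ratio, so the sets are described with no test between them. Taken over each HB mRNA library alone the difference was 0.23 and 0.42, and with each ribosome-bound library alone 0.32 and 0.32. Within 25 strata of transcript length and mRNA level, which hold all genes of both sets, the difference was 0.01, or -0.11 and 0.06 over each mRNA library. Methylated genes had the higher median in 12 strata and the lower in 13, with differences from -0.59 to 0.89. At matched length and level the sign of the difference thus depended on which mRNA library was used, and its size lay within their spread (SD 0.12). With strata of gene span and level the difference was 0.03, and with strata of length and span, level left free, 0.27.

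By level alone, the median log2 ratio was lower in the highest than in the lowest quintile of CPM in both sets, though not in every step between, and mRNA level is also the denominator of the ratio. In the lowest quintile of CPM it was -0.27 in methylated and -0.00 in unmethylated genes, and in the highest -0.90 in methylated and -1.26 in unmethylated genes. By length it was -0.65 in methylated and -0.91 in unmethylated genes of the shortest quintile, and -0.26 in methylated and -0.54 in unmethylated genes of the longest. In the fourth quintile the medians were -0.44 in methylated genes and -0.43 in unmethylated genes.

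**Figure D4:**
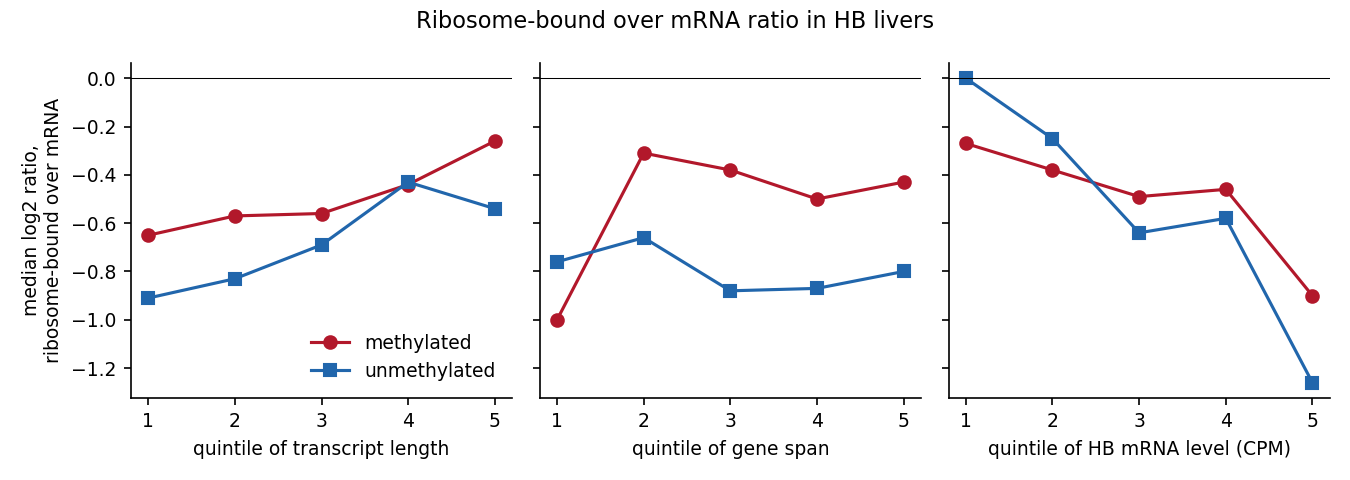
Median log2 ratio of ribosome-bound over mRNA CPM in HB livers for methylated and unmethylated genes, by quintile of transcript length, of gene span and of mRNA level. The 2 sets cross in each panel; by level the medians lie between -0.27 and -0.90 for methylated genes and between -0.00 and -1.26 for unmethylated genes.

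In HF livers, whose mRNA and ribosome-bound libraries the choice of genes did not use, the difference between the same sets was 0.04 and -0.09 for the 2 ribosome-bound libraries. Within the strata it was 0.01 and -0.12. By number of peaks, methylated genes with 1 summit in each HB library, with a mean above 1 and up to 3, and with a mean above 3 differed from unmethylated genes within strata by -0.08, -0.04 and 0.00. Methylated genes with an overlapping peak differed by -0.11 within strata, and those with none overlapping by -0.00. Across methylated genes the lower of the 2 best enrichments and the log2 ratio had r of 0.01 (rho 0.02). Genes with no ribosome-bound read in either HB library were 277 of 3285 methylated (8.43%) and 99 of 2031 unmethylated (4.87%). These shares are not matched on level. From the lowest to the highest quintile of CPM they were 16.5%, 11.6%, 4.72%, 1.48% and 0.317% in methylated genes. In unmethylated genes they were 11.8%, 12.3%, 8.52%, 1.76% and 0.535%. The methylated share was thus the higher in the lowest quintile only.

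Single genes were tested for ribosome-bound over total mRNA in HB with edgeR's quasi-likelihood test over 12634 genes. Of all genes tested, 6.36% were called higher and 22.0% lower in ribosome-bound mRNA at an adjusted p under 0.05. Of methylated genes, 220 (6.70%) were higher and 403 (12.3%) lower, and of unmethylated genes 135 (6.65%) higher and 442 (21.8%) lower. Of the 1492 genes with a summit in 1 library, 7.24% were higher and 13.6% lower. The share called higher was near the background in all 3 groups, and the share called lower was below it in methylated genes and in genes with a summit in 1 library. The background includes genes below 10 CPM. Among the groups at 10 CPM or more, the share called lower was greatest in unmethylated genes (21.8%). It was 12.3% in methylated genes and 13.6% in genes with a summit in 1 library. These shares are not matched on length or level. The median fitted log2 difference was -0.45 in methylated genes and -0.78 in unmethylated genes, against -0.71 in all genes tested. These calls rest on every mRNA library. Without any 1 of the 4 mRNA libraries no gene passed (smallest adjusted p 0.0651 to 0.0763, with 3819 to 4063 genes at an unadjusted p under 0.05). Without either HF ribosome-bound library the spread comes from mRNA libraries alone, and 528 methylated genes were higher in both cases and 1227 or 1223 lower. In the same fits, 302 or 301 unmethylated genes were higher and 941 or 938 lower. DESeq2 called 353 methylated genes higher and 755 lower, and 225 unmethylated genes higher and 711 lower. With the trend of the ratio on length removed, 909 methylated genes were higher and 246 lower, and 612 unmethylated genes were higher and 205 lower, so the balance of directions turned. That setting also moved the median of all genes to 0.78, compared with -0.71. A fit with the replicate number as a block called 180 methylated genes higher and 259 lower, and 122 unmethylated genes higher and 404 lower.

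The methylated genes with the highest ratio included regulators of translation. Eif5b, which joins the ribosomal subunits, had 169 and 169 RPKM in ribosome-bound libraries, against 6.14 and 5.55 RPKM in mRNA libraries. Larp4b, an RNA-binding protein of the La family, had 264 and 256 RPKM in ribosome-bound libraries, against 10.7 and 10.8 RPKM in mRNA libraries. Magt1, a magnesium transporter linked to N-glycosylation, had 431 and 434 RPKM in ribosome-bound libraries, against 14.995 and 12.8 RPKM in mRNA libraries. These genes were picked for their ratio. The fitted log2 differences were 4.48 ± 0.27 for Eif5b, 4.22 ± 0.21 for Larp4b and 4.59 ± 0.22 for Magt1 (SE, edgeR adjusted p 0.0149 each). Mapk1ip1 and Zcchc7, a zinc finger protein of nuclear RNA surveillance, were the other two of the 5 highest, with 4.55 ± 0.40 (adjusted p 0.0181) and 4.20 ± 0.27 (adjusted p 0.0149). In HF too, all 5 genes had more RPKM in each ribosome-bound library than in either mRNA library, where Eif5b had 207 and 248 RPKM in ribosome-bound libraries, against 20.7 and 15.9 RPKM in mRNA libraries.

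Igf1, the growth factor that the liver secretes, was a methylated gene with more RPKM in ribosome-bound libraries, 546 and 547, than in mRNA libraries, 71.2 and 73.7. The fitted log2 difference was 2.54 ± 0.39 (SE, edgeR adjusted p 0.0181). Ythdc1, the nuclear m6A reader, had 31.9 and 31.4 RPKM in ribosome-bound libraries, against 10.1 and 7.82 RPKM in mRNA libraries (log2 difference 1.45 ± 0.28, edgeR adjusted p 0.0202). Bckdhb, of branched-chain amino acid breakdown, and Psmd4, the ubiquitin receptor of the proteasome, were higher by 2.08 and 2.11 on the log2 scale. Arg1 was lower, with 200 and 200 RPKM in ribosome-bound libraries, against 1108 and 736 RPKM in mRNA libraries (log2 difference -2.57 ± 0.36, edgeR adjusted p 0.0181). Ppara, the fatty acid sensing nuclear receptor, was lower too, with 15.1 and 14.8 RPKM in ribosome-bound libraries, against 35.1 and 36.9 RPKM in mRNA libraries (log2 difference -1.64 ± 0.29, edgeR adjusted p 0.0182). Psmb7, a catalytic proteasome subunit, was lower by far, with 12.96 and 12.4 RPKM in ribosome-bound libraries, against 191 and 174 RPKM in mRNA libraries. With the trend on length removed, Arg1 and Ppara did not pass (log2 differences -1.06 and -0.37, adjusted p 0.0914 and 0.388), but the median of all genes moved by a similar amount, to 0.78 compared with -0.71. Of 10 methylated genes of the proteasome 1 was called higher and 1 lower, against 6.36% and 22.0% of all genes tested.

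The methylated genes with the lowest ratio had no ribosome-bound read in either HB library, and their folds are lower bounds against 3 reads over both libraries together. Acads, a short-chain acyl-CoA dehydrogenase of fatty acid oxidation, had 0 and 0 ribosome-bound reads, against 4491 and 3493 mRNA reads, at least 1290-fold lower. In HF it had 132 and 143 ribosome-bound reads, against 550 and 677 mRNA reads. Npm1, the nucleolar protein nucleophosmin, had 0 and 0 ribosome-bound reads, against 1960 and 1149 mRNA reads, at least 494-fold lower. In HF it had 229 and 270 ribosome-bound reads. Rtn4, which shapes the endoplasmic reticulum, had 0 ribosome-bound reads in all 4 libraries of both diets, and was at least 351-fold lower in HB. Akr1c13, an aldo-keto reductase, was at least 392-fold lower in HB. How these counts of 0 arose was not tested.

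Among unmethylated genes the highest ratio was that of Pabpn1, the nuclear poly(A)-binding protein. It had 2086 and 2076 RPKM in ribosome-bound libraries, against 67.0 and 86.5 RPKM in mRNA libraries (log2 difference 4.38 ± 0.43, SE, edgeR adjusted p 0.0181). Angptl8, a secreted regulator of lipoprotein lipase, had 718 and 704 RPKM in ribosome-bound libraries, against 39.5 and 39.0 RPKM in mRNA libraries (log2 difference 3.80 ± 0.29, edgeR adjusted p 0.0170). Nop56, of nucleolar ribosome assembly, Mmp14, a membrane metalloprotease, and Ttc36 were higher by 4.10, 3.78 and 3.38 on the log2 scale. Apoc1 was higher as well, with 45913 and 46467 RPKM in ribosome-bound libraries, against 8869 and 13345 RPKM in mRNA libraries (log2 difference 1.67 ± 0.34, edgeR adjusted p 0.0227). Gcgr, the glucagon receptor, had 1135 and 1141 RPKM in ribosome-bound libraries, against 170 and 249 RPKM in mRNA libraries (log2 difference 2.06 ± 0.44, edgeR adjusted p 0.0264).

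Several abundant unmethylated genes were lower in ribosome-bound mRNA, as were 21.8% of all unmethylated genes and 22.0% of all genes tested. Of the most abundant ones listed above, Alb, Apoe and the Mup genes were called lower and Apoc1 higher. Apoa2, Apoc3, Ttr and Ftl1 were not called. Gnmt, the glycine methyltransferase that consumes S-adenosylmethionine, had 92.9 and 96.5 RPKM in ribosome-bound libraries, against 1792 and 1016 RPKM in mRNA libraries (log2 difference -4.25 ± 0.60, SE, edgeR adjusted p 0.0181). Bhmt, the enzyme that uses betaine, had 428 and 427 RPKM in ribosome-bound libraries, against 1280 and 1444 RPKM in mRNA libraries, and did not pass (adjusted p 0.158). Mat1a, which makes S-adenosylmethionine, had 965 and 973 RPKM in ribosome-bound libraries, against 905 and 733 RPKM in mRNA libraries (adjusted p 0.839). Cyp2e1, a cytochrome P450 of ethanol metabolism, had 842 and 849 RPKM in ribosome-bound libraries, against 4454 and 4531 RPKM in mRNA libraries (log2 difference -2.79 ± 0.28, edgeR adjusted p 0.0181). The elongation factors Eef1a1 and Eef2 were lower by -2.06 and -2.32 on the log2 scale. Alb and Apoe were lower by -1.47 ± 0.34 and -1.61 ± 0.39 (edgeR adjusted p 0.0320 and 0.0367). Apoa2, the most abundant, did not pass (log2 difference -0.19 ± 0.42, adjusted p 0.795). With the trend on length removed Alb was at 0.02 and Apoe at -0.03, Eef1a1 at -0.58 and Eef2 at -0.73, and none of these 4 passed. That setting moved the median of all genes by a like amount, to 0.78 compared with -0.71, so relative to other genes the 4 stayed about as low. Alb and Apoe also did not pass under total counts, where the median of all genes was -0.34 (adjusted p 0.0664 and 0.0578), or in limma on log2(RPKM + 0.1) (adjusted p 0.101 and 0.0870). The 5 lowest, Rps27l, Mtch1, Lrrc59, Npc2 and Rpl7l1, had 0 ribosome-bound reads in both HB libraries and were at least 1630-fold, 519-fold, 414-fold, 410-fold and 365-fold lower.

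Ribosomal protein genes were low in ribosome-bound mRNA in both sets, under every scaling tried. All 7 methylated members and 56 of 66 unmethylated members were called lower, and none of either was called higher. Of all genes tested, 22.0% were called lower and 6.36% higher. With the trend on length removed 7 and 52 were lower. The median log2 ratio was -5.82 in the 7 and -5.64 in the 66. Rps18, methylated, had 14.02 and 16.03 RPKM in ribosome-bound libraries, against 559 and 1147 RPKM in mRNA libraries. Rpl10, unmethylated, had 15.02 and 14.04 RPKM in ribosome-bound libraries, against 819 and 901 RPKM in mRNA libraries. Summed over all listed genes, ribosomal protein mRNA came to 1230 and 1223 RPKM in the ribosome-bound libraries, against 25230 and 36290 RPKM in the mRNA libraries. Ribosomal protein genes have near-identical copies in the genome, which makes their counts uncertain. The respiratory chain, similarly short, had a median log2 ratio of -0.15 in its 6 methylated and -0.24 in its 62 unmethylated genes, with 0 of 6 methylated genes called. Of its 62 unmethylated genes 4 were higher and 11 lower, near the shares of all genes tested. Under total counts 16 were higher and 9 lower, and with the trend on length removed 35 were higher and 3 lower. The median of all genes moved alike, to -0.34 and 0.78 in these settings compared with -0.71, and the median of the 76 genes was at 0.13 and 1.26 compared with -0.25. Relative to all genes the list was therefore placed about the same in the 3 settings.

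Between diets, the median mRNA change was 0.01 in methylated genes and 0.44 in unmethylated genes, as log2 of HB over HF. With edgeR on the 4 mRNA libraries, 11.3% of 12817 genes tested were called higher in HB and 10.1% lower. Of methylated genes 371 (11.3%) were higher and 429 (13.1%) lower in HB. Of unmethylated genes 524 (25.8%) were higher and 105 (5.17%) lower. The shares of all genes tested include genes below 10 CPM. Of the 1492 genes with a summit in only the first or only the second HB pulldown library, 245 (16.4%) were higher and 132 (8.85%) lower. Among the groups at 10 CPM or more, methylated genes thus had the smallest share called higher and the greatest share called lower. These shares are not matched on length. The choice of genes required 10 CPM in HB mRNA and set no minimum in HF, so HB levels entered it in both sets. Scaling by total counts put the median of all genes at -0.28, compared with 0.01 after TMM, and gave 189 methylated genes higher and 734 lower, and 304 unmethylated genes higher and 235 lower. Without the first HB library 112 methylated genes were higher and 126 lower, and 289 unmethylated genes higher and 19 lower. Without the first HF library these counts were 73 and 113 for methylated and 132 and 34 for unmethylated genes. Without the second HF library they were 141 and 272 for methylated and 229 and 77 for unmethylated genes.

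Transcript length went with the change in both sets. In the shortest quintile the median log2 change was 0.53 in methylated and 0.55 in unmethylated genes, and in the longest -0.25 in methylated and -0.03 in unmethylated genes. In the third quintile it was 0.16 in methylated and 0.33 in unmethylated genes. Within strata of length and HB mRNA level the difference between the sets was -0.04, against -0.43 without strata. HB mRNA is part of the change itself, so strata of level take up some of it.

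**Figure D5:**
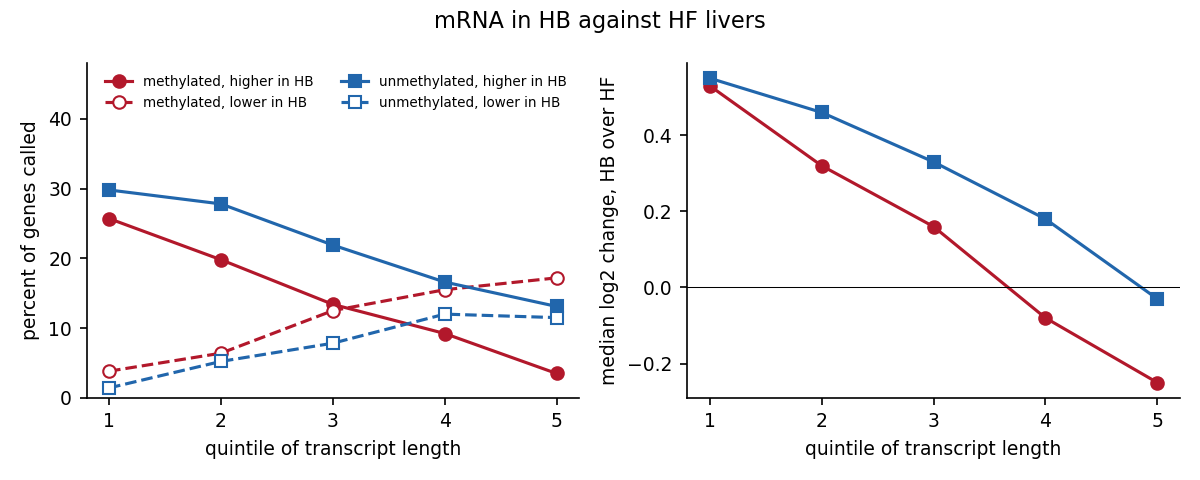
Percent of genes called higher or lower in HB than HF mRNA (left) and median log2 change (right) by quintile of transcript length, for methylated and unmethylated genes. The percent called higher and the median change decline with length in both sets. The medians are 0.53 and -0.25 in the shortest and longest quintile of methylated genes and 0.55 and -0.03 in those of unmethylated genes. The percent called lower is greater in the longest than in the shortest quintile, at 17.2% against 3.82% in methylated and 11.5% against 1.42% in unmethylated genes.

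Among methylated genes, Acads had 107 and 103 RPKM in HB mRNA, against 25.2 and 30.6 RPKM in HF mRNA (log2 change 2.17 ± 0.29, SE, edgeR adjusted p 0.00403). Psmb7 had 191 and 174 RPKM in HB, against 53.1 and 60.2 RPKM in HF (log2 change 1.95 ± 0.29, adjusted p 0.00446). Dhcr7 had 32.6 and 24.4 RPKM in HB, against 10.7 and 7.78 RPKM in HF (log2 change 1.88 ± 0.30, adjusted p 0.00486). The clock repressor Per2 was lower in HB, with 17.3 and 24.2 RPKM, against 73.4 and 78.6 RPKM in HF (log2 change -1.60 ± 0.31, adjusted p 0.00875). Zcchc7 was lower too, with 4.98 and 5.06 RPKM in HB, against 30.9 and 32.8 RPKM in HF (log2 change -2.40 ± 0.28, adjusted p 0.00403). Igf1 had 71.2 and 73.7 RPKM in HB, against 198 and 158 RPKM in HF (log2 change -1.03 ± 0.29, adjusted p 0.0301). Ythdc1 had 10.1 and 7.82 RPKM in HB, against 29.5 and 23.8 RPKM in HF (log2 change -1.31 ± 0.28, adjusted p 0.0114). In each of these 7 genes both HB values lay on the same side of both HF values. Igf1 did not pass without the first HB library (adjusted p 0.0861) or without the first or second HF library (0.238 and 0.0575), nor Ythdc1 without the first HF library (0.101).

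Among unmethylated genes, Fdps, which makes farnesyl diphosphate for cholesterol, had 300 and 125 RPKM in HB mRNA, against 30.0 and 23.4 RPKM in HF mRNA (log2 change 3.24 ± 0.41, SE, edgeR adjusted p 0.00403). Gnmt had 1792 and 1016 RPKM in HB, against 517 and 342 RPKM in HF (log2 change 1.96 ± 0.35, adjusted p 0.00725). Fasn had 212 and 32.4 RPKM in HB, against 15.2 and 21.5 RPKM in HF (log2 change 2.96 ± 0.64, adjusted p 0.0118). Its HB values lay above both HF values but differed from each other far more than those of HF, and without the first HB library Fasn did not pass (log2 change 1.13, adjusted p 0.0661). Eef2 had 422 and 465 RPKM in HB, against 196 and 197 RPKM in HF (log2 change 1.44 ± 0.29, adjusted p 0.00943), but did not pass without the first HF library (adjusted p 0.0572). The following counts stand against 11.3% higher and 10.1% lower among all genes tested. The lists include genes with a summit in 1 library only. Of the 26 cholesterol synthesis genes, 21 were higher in HB mRNA and 0 lower, among them 2 of 3 methylated and 14 of 15 unmethylated genes. Without the first HB library 14 of the 26 were higher, as were 22, 16 and 19 without the second HB, first HF and second HF library. Of 33 splicing factors 0 were higher and 15 lower, among them 5 of 10 methylated and 4 of 10 unmethylated genes. Without the first HB, first HF or second HF library 7, 4 and 9 splicing factors were lower. Of 29 chromatin regulators 0 were higher and 9 lower, including 7 of 24 methylated and 0 of 2 unmethylated genes, in a list of long transcripts (median 8350 bases). In the longest quintile 17.2% of methylated genes were lower. Without the first HB or the first HF library no chromatin regulator passed, and without the second HF library 5 did. Under total counts 20 of them were lower.

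The libraries behind these values held 22492813 and 18011999 reads in HB mRNA, 6508500 and 8659310 in HB ribosome-bound mRNA, 11437462 and 11570775 in HF mRNA, and 5778439 and 6431510 in HF ribosome-bound mRNA. The counts of the HB ribosome-bound pair were almost as close as sampling noise alone allows, with a chi-square per degree of freedom of 1.40, against 34.7 to 98.5 in the other pairs, and was summed as 1 sample in the tests. Close values of that pair are therefore no measure of biological spread. All 12 hepatocyte markers were above 10 CPM, and summed markers of hepatocytes came to 60360 and 58150 RPKM in HB mRNA, against 49910 and 51080 RPKM in HF mRNA. Red blood cell markers came to 738 and 2249 RPKM in HB mRNA, against 675 and 523 RPKM in HF mRNA, and all 4 of these genes at 10 CPM were unmethylated. Macrophage markers came to 287 and 282 RPKM in HB mRNA, against 187 and 230 RPKM in HF mRNA, with 4 of 8 called higher. Endothelial markers came to 75.5 and 89.1 RPKM in HB mRNA, against 106.5 and 108.9 RPKM in HF mRNA, with 1 of 9 called lower. Also called higher were 2 of 12 hepatocyte markers, 2 of 4 red blood cell markers and 1 of 4 stellate markers. Of all genes tested, 11.3% were called higher and 10.1% lower. The part of these cell types in the results was not tested. In bulk liver, fewer cells of a type and less RNA per cell cannot be told apart.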

How the data were processed

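The authors' deposited tables give a read count per gene, with splice variants merged and alignment to RefSeq transcripts per the series' design text, and the RPKM per kilobase of the longest transcript. The m6A peak lists are the authors', 1 per library, and per the file headers hold summit positions, a pileup signal of unstated scaling, −log10 p and q values and a fold enrichment (ratio) over local background. The labels' protocols name Trimmomatic 0.36 and TopHat 2.0.13, and the submitters' processing notes list MACS2 2.1.0.20151222, HISAT2 2.0.4, HTSeq 0.6.0, HOMER 4.8, cutadapt 1.9.3 and edgeR for mm10, with no role.

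CPM for the choice of genes is the count over the library's total. Gene spans came from RefSeq (GRCm38.p6), matched by accession for 6801 genes and by symbol for 7; 4 had none. Counts were tested with edgeR 4.0.16 in R 4.3.3 (TMM, filterByExpr, quasi-likelihood, Benjamini-Hochberg, threshold 0.05): 4 group means over 7 libraries for the ratio, with the HB ribosome-bound pair summed, and 4 mRNA libraries for diet. The fits were run on simulated counts, and only the median size of the simulated folds was required to be roughly recovered. That check does not show how many calls in the real data are right. Alternatives used DESeq2 1.42.0 and limma 3.58.1. Strata were quintiles of both sets together, with at least 5 genes of each set, and differences of medians were averaged with weights n1n2/(n1 + n2).

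The sets, gene lists and rules were chosen with earlier results of these data known. Named genes are those with the highest level, enrichment, length or ratio in either direction in each set (higher ones with at least 50 ribosome-bound reads), plus up to 4 methylated and 4 unmethylated genes of each of 26 lists. Dpyd, the 3 intron-poor genes and the summit windows were chosen after their values were seen. One gene that the rule names is not reported here. The bounds at 0 reads cover counting error only.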

Additional observations from a re-analysis of the deposited data

How the results depend on the processing

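Differences here are methylated minus unmethylated genes, as log2 medians; as reported, length differed by 1.02, RPKM by -2.18, the ribosome-bound over mRNA ratio by 0.33 and the ratio within strata by 0.01. With peaks of a fold enrichment of at least 10, 1724 genes were methylated and 3410 unmethylated, with a length difference of 1.04 and an RPKM difference of -1.94. A minimum of 20 CPM left 1955 methylated genes (length 0.99). Leaving out genes that overlap another left 1547 and 1290 genes (length 0.94). CPM in place of RPKM gave a level difference of -1.22. Requiring overlapping peaks, added after seeing the data as were strata of span and CPM after TMM, left 1773 methylated genes (length 1.09). Leaving out each HB m6A or mRNA library in turn, the length difference was 0.80 to 1.03, the RPKM difference -2.26 to -1.59, the ratio difference 0.18 to 0.39 and the difference within strata -0.15 to 0.04. Genes called for the ratio, 3584 as reported, were 1765 with a mean of at least 5 CPM, 7747 with HB libraries only, 5428 with the ribosome-bound pair kept apart, and 0 to 8191 on leaving out 1 library. The replicate block gave 1332. Deviations of same-numbered mRNA and ribosome-bound libraries had a correlation of 0.03 in HB and 0.07 in HF. The HB value cannot decide whether the numbers pair libraries, since its ribosome-bound pair differs little beyond sampling noise. The HF value showed little sign of such pairing. With the trend on length removed, log2 ratios turned positive for Adh1 (0.05), Alb (0.02), Apoa2 (1.24), Cebpa (0.90), Cebpb (1.48), Hnf4a (1.52), Mat1a (1.47) and Serpina3k (1.00), in a setting that put the median of all genes at 0.78, compared with -0.71. Genes called between diets, 2740 as reported, were 776 to 3024 on leaving out 1 library and 2936 with the replicate block. The same-numbered diet libraries had a correlation of -0.11, and a crossed replicate block gave 3407. Every other setting of these totals stayed within 1.5 times the reported count or 1 SD of the reported difference. Summits within exons and coding lengths were not run. Depth limits ratios near 0 reads, and 2 pools per group limit every test.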
